A study of Mus musculus with 16 samples.

Results

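The G2 and M phase genes described here are 45 genes that a dividing cell switches on between the end of DNA replication and the split into 2 daughter cells. They were taken by symbol from a list that names them, and all 45 were found among the 20325 genes of the deposited table. Their values were read in 16 RNA-seq libraries of C3H10T1/2, a mouse mesenchymal cell line derived from embryo. Each of 8 groups of 2 libraries stably overexpressed a histone H3 transgene delivered by lentivirus. In the H3.3 groups the transgene was wild type, G34W, G34R, K27R, the double mutant G34W K27R or the double mutant G34W K36R. In the H3.1 groups it was wild type or G34W, and no group carried K36R alone. Cells of all groups, wild type included, grew in medium with 10% serum, were transduced for 2 days and were selected with 1.5 µg/ml puromycin for 4 days. The labels describe no change to the cells' own H3 genes. No label says that libraries sharing a transgene came from separate cultures, so a p-value here measures only spread between libraries, possibly a technical one.

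Progress through G2 and mitosis is driven by Cdk1 bound to cyclin A2 and then to the B cyclins, and is helped by Plk1 and the Aurora kinases. The kinetochore, built on the centromeric histone Cenpa, attaches chromosomes to the spindle, and the spindle checkpoint holds the anaphase-promoting complex until all are attached. Cdc20 then lets that ubiquitin ligase destroy securin and cyclin B, and the central spindle directs cytokinesis. Most of these genes are transcribed together late in the cycle by the MuvB complex with B-Myb and Foxm1. In resting cells MuvB joins E2F4 and a pocket protein in the DREAM complex, which represses them through a promoter element named the CHR. Histone H3.3 is the variant laid down outside replication. Lysines K27 and K36 of its tail carry methyl marks, and an arginine in their place (K27R, K36R) cannot carry those marks.

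In cells with H3.3 G34W K27R nearly the whole set stood far below every other library. The 45 genes together summed to 16083 and 15813 in the 2 G34W K27R libraries, and to between 105010 and 277177 in the other 14. These are deposited normalised values, estimated read counts scaled by the authors. For 44 of the 45 genes both G34W K27R libraries lay below all 14 others, as they did for 10.8% of the 12670 genes tested. The gap was wide: the lowest of the 14 divided by the higher G34W K27R value was 8.18 at the median gene and 14.9 at the highest. Bub3 apart, it was smallest for Cks2, with 1150 in the lowest other library against 363. Bub3, a checkpoint protein, was the exception, with a ratio of 0.913. Every member stood above 3 reads in every library, the lowest being 25.0 reads, so no value here is limited by a zero. In bulk libraries fewer cycling cells and less of this RNA in each cell cannot be told apart.

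**Figure D1:**
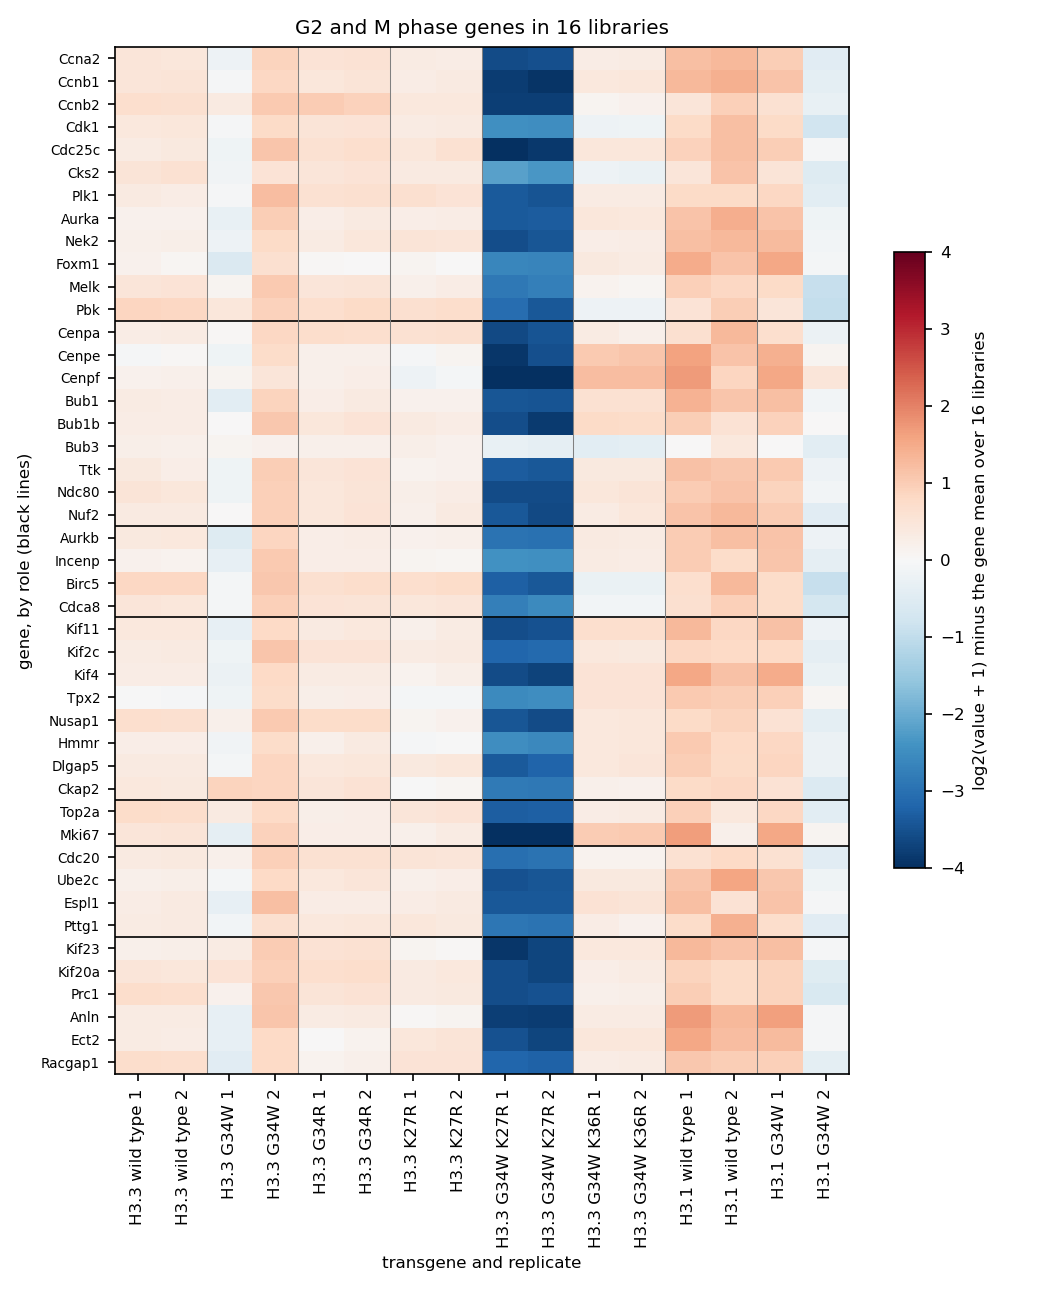
Values of the 45 genes (rows, by role) in 16 libraries (columns), as log2(value + 1) minus the mean of the gene over the libraries. Both H3.3 G34W K27R columns are low for every gene except Bub3, replicate 1 of H3.3 G34W and replicate 2 of H3.1 G34W are paler than their partners, and the H3.1 wild-type columns are the highest for many genes.

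Members of the set are known to share promoter elements, so the promoters are shown before the values. RefSeq promoters of the GRCm38.p6 build, 250 bases before to 50 after the transcript start, were matched by symbol for 36 of the 45 genes. The others are Aurkb, Ccna2, Cdc25c, Dlgap5, Foxm1, Incenp, Kif20a, Pbk and Tpx2. The CHR was searched as TTTGAA or TTTAAA on both strands, which also finds TTCAAA, and the CCAAT box, bound by NF-Y, as CCAAT on both strands, which also finds ATTGG. The 200 bases before the start are shown for both B cyclins, for Cdk1 and Plk1 as the kinases they work with, and for Bub3 as the exception. Each is read 5′ to 3′ on the gene's own strand, and capitals mark CHR and CCAAT matches.
Ccnb1, chr13:100786487-100786686, minus strand: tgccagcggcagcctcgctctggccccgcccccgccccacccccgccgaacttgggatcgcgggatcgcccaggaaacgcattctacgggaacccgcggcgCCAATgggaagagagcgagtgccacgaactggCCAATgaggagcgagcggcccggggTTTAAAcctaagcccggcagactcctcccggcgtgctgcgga
Ccnb2, chr9:70421555-70421754, minus strand: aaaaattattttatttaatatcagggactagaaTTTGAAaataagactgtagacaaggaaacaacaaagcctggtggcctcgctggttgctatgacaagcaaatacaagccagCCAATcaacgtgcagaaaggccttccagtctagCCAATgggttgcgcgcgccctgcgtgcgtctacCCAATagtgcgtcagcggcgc
Cdk1, chr10:69352913-69353112, minus strand: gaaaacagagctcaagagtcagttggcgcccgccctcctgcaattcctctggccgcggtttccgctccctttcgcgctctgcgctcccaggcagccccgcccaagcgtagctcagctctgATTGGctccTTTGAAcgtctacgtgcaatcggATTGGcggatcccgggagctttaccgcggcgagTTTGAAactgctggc
Plk1, chr7:122159235-122159434, plus strand: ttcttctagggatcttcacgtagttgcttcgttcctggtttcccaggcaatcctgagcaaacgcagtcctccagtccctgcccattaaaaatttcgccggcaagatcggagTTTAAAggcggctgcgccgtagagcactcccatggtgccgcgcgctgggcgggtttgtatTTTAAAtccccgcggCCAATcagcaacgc
Bub3, chr7:131560170-131560369, plus strand: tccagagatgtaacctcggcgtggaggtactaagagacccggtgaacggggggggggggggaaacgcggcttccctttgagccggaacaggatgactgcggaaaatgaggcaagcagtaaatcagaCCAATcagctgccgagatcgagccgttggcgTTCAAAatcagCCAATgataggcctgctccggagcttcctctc

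Ccnb1 has 2 CCAAT boxes followed by a CHR whose first base lies 42 bases before the start. In Cdk1 the CHR nearest to the start begins 15 bases before it, and the Plk1 promoter holds TTTAAA at 89 and again at 29 bases before the start. Bub3 holds the same elements, with a TTCAAA at 43 bases between CCAAT boxes at 74 and 32 bases before the start. Over the 36 promoters a CHR match was found in 29, or 80.6%, and over all 32851 promoters of the table in 27.6%. At least 1 CCAAT box was found in 28 member promoters (77.8%) against 37.4% of all, and at least 2 in 19 (52.8%) against 11.7%. Both elements together were found in 25 members (69.4%) against 10.7% of all promoters. These matches describe the letters and are not measured binding.

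**Figure D2:**
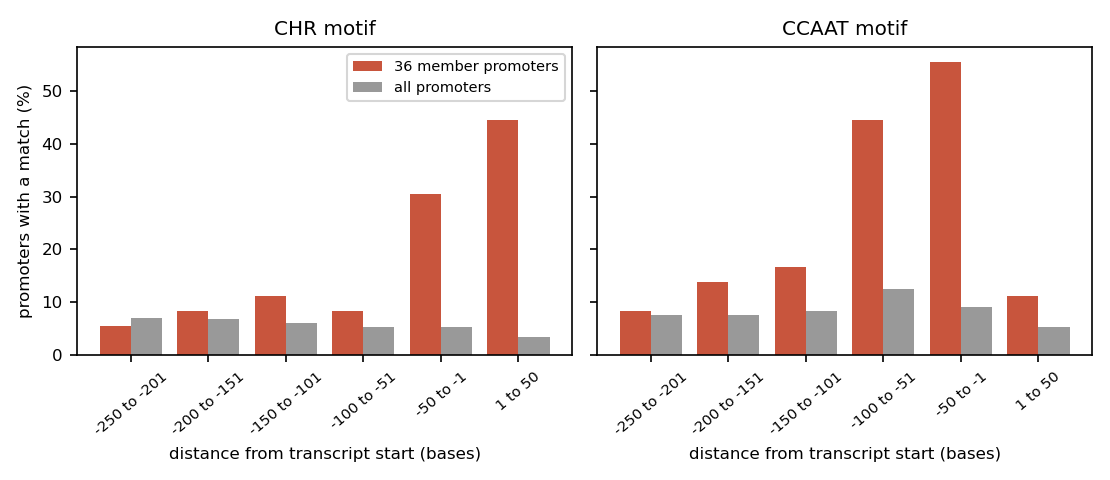
Share of promoters with a CHR match (left) or a CCAAT match (right) beginning in each 50-base window around the transcript start, for the 36 member promoters (red) and all promoters (grey). CHR matches of the members sit mostly in the 2 windows next to the start, at 30.6% and 44.4% of promoters against 5.22% and 3.37% of all, and CCAAT matches in the 2 windows before it, at 44.4% and 55.6% against 12.5% and 9.03%.

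The change in H3.3 G34W K27R can be set beside the CHR matches. Relative to H3.3 wild type the 29 genes with a match had a median log2 fold change of -3.87 and the 7 without one, Bub1, Cks2, Melk, Nek2, Nuf2, Nusap1 and Pttg1, of -3.70. No test was made of that difference.

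The first comparison asks what the double mutant does relative to wild-type H3.3. Against H3.3 wild type, 44 of the 45 genes fell in H3.3 G34W K27R and none rose (limma, adjusted p under 0.05), while 7.91% of all genes tested were called lower. The median log2 fold change was -3.74 over the 45 genes and -0.01 over all genes. Leaving out Bub3, the genes kept between 4.10% (Mki67) and 17.9% (Tpx2) of their wild-type value, with a median of 7.14%, and 34 of the 44 were under 10%. Against H3.3 G34W, the single mutant with the same substitution at G34, 44 genes fell with a median of -3.80, beside 12.4% of all genes called lower. Set against H3.3 K27R, the other single-mutant parent, all 45 fell with a median of -3.75, beside 14.5% of all genes. This last comparison was added after the data were seen, and the 3 comparisons share the G34W K27R libraries.

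**Figure D3:**
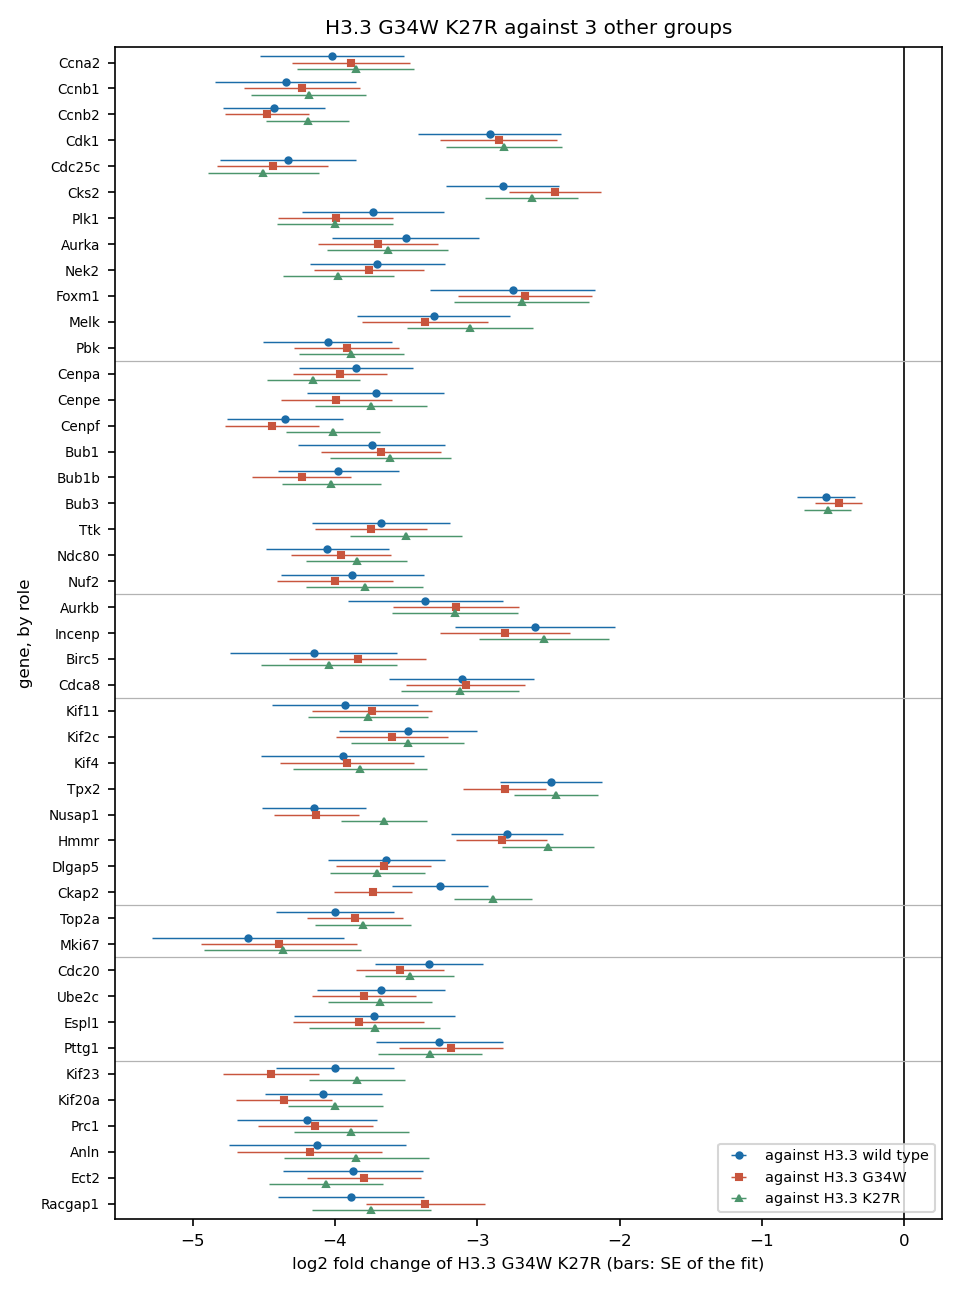
Log2 fold change of each of the 45 genes in H3.3 G34W K27R against H3.3 wild type (circles), H3.3 G34W (squares) and H3.3 K27R (triangles), with standard errors of the fit. All points except those of Bub3 lie at -2.45 or further left, and the 3 estimates of a gene overlap within their errors for most genes.

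Each role class took part. Among the cyclins, kinases and other genes of mitotic entry 12 of 12 fell against H3.3 wild type, with log2 fold changes from -4.43 (Ccnb2) to -2.75 (Foxm1). In the kinetochore and checkpoint class 8 of 9 fell, from -4.35 (Cenpf) to -3.68 (Ttk), with Bub3 at -0.55 not called. All 4 genes of the chromosomal passenger complex fell, from -4.15 (Birc5) to -2.59 (Incenp). Spindle motors and microtubule proteins fell in 8 of 8 genes, from -4.15 (Nusap1) to -2.48 (Tpx2). Both genes of mitotic chromosome structure fell, as did 4 of 4 genes of anaphase and its ubiquitin ligase, from -3.72 (Espl1) to -3.27 (Pttg1). The 6 genes of the central spindle and cytokinesis fell within a narrow band, from -4.19 (Prc1) to -3.87 (Ect2).

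The kinases and cyclins of mitotic entry show the scale of the change. Ccnb1, the cyclin B1 that carries Cdk1 into mitosis, stood at 244 and 222 in the 2 H3.3 G34W K27R libraries. Ccnb1 values were 4693 and 4810.2 with H3.3 wild type, 3234 and 5940.4 with G34W, 4668 and 4782 with G34R and 4193 and 4301 with K27R. For Ccnb1 the G34W K36R libraries held 4519 and 4598, the H3.1 wild-type libraries 8350.1 and 8959.9 and the H3.1 G34W libraries 7493 and 2580.4. The lowest of these is replicate 2 of H3.1 G34W, and no value of another group came near the G34W K27R pair. The log2 fold change of Ccnb1 against H3.3 wild type was -4.35 ± 0.50 (SE), adjusted p = 0.000342. Ccnb2, the second B cyclin, was at 112 and 114 in G34W K27R. Ccnb2 values were 2465 and 2439 with H3.3 wild type, 1988 and 3239.9 with G34W, 3106 and 2963 with G34R and 2076 and 2085 with K27R. For Ccnb2 the G34W K36R libraries held 1684 and 1730.5, the H3.1 wild-type libraries 2161 and 3001 and the H3.1 G34W libraries 2377 and 1267. These 14 values have a median of 2269, and none comes near the double mutant. Its fall against H3.3 G34W was the largest of the set, at -4.48 ± 0.29 (SE), adjusted p = 5.7e-06.

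Cdk1, the mitotic kinase itself, was among the genes that fell least. It was at 814 and 798 in G34W K27R. Cdk1 values were 6058 and 6098 with H3.3 wild type, 4374 and 7739 with G34W, 6481 and 6558 with G34R and 5596 and 5746 with K27R. For Cdk1 the G34W K36R libraries held 3914 and 4029, the H3.1 wild-type libraries 7680.3 and 10431 and the H3.1 G34W libraries 7655 and 2653. Again the groups did not overlap, and the lowest other library was replicate 2 of H3.1 G34W. The log2 fold change of Cdk1 against H3.3 wild type was -2.91 ± 0.50 (SE), adjusted p = 0.00355, leaving 13.3% of the wild-type value. Cdc25c, the phosphatase that activates Cdk1, was at 27.7 and 32.1 in G34W K27R. Cdc25c values were 604 and 632 with H3.3 wild type, 427 and 1039 with G34W, 734 and 765 with G34R and 661 and 739 with K27R. For Cdc25c the G34W K36R libraries held 668 and 667, the H3.1 wild-type libraries 916 and 1111 and the H3.1 G34W libraries 948 and 473. The values outside the double mutant have a median of 701 and do not overlap it. Against H3.3 K27R its log2 fold change was -4.50 ± 0.39 (SE), adjusted p = 6.17e-05, the largest fall of that comparison.

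Plk1, a kinase of mitotic entry and spindle assembly, was at 157 and 147 in G34W K27R. Plk1 values were 2069 and 1996 with H3.3 wild type, 1569 and 3796 with G34W, 2479.5 and 2517 with G34R and 2511 and 2384 with K27R. For Plk1 the G34W K36R libraries held 2038 and 2028, the H3.1 wild-type libraries 2736 and 2772 and the H3.1 G34W libraries 2856 and 1213. Replicate 2 of H3.3 G34W held the highest value of the gene and replicate 2 of H3.1 G34W the lowest outside the double mutant. Plk1 had a log2 fold change against H3.3 wild type of -3.73 ± 0.50 (SE), adjusted p = 0.000781. Foxm1, the transcription factor that helps to switch on the set, was at 392 and 384 in G34W K27R. Foxm1 values were 2696 and 2541 with H3.3 wild type, 1600.2 and 3789 with G34W, 2474 and 2449 with G34R and 2591 and 2425 with K27R. For Foxm1 the G34W K36R libraries held 3148 and 3054, the H3.1 wild-type libraries 6691 and 5325 and the H3.1 G34W libraries 7044 and 2265. The 3 highest Foxm1 values are the H3.1 wild-type pair and replicate 1 of H3.1 G34W, and G34W K27R again lies alone at the bottom. Its log2 fold change against H3.3 wild type was -2.75 ± 0.58 (SE), adjusted p = 0.0104, leaving 14.8%.

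RNA of the kinetochore genes of the set, Bub3 apart, was low in G34W K27R. Cenpa, the histone H3 variant of centromeres, was at 81.5 and 92.4 there. Cenpa values were 1255 and 1283 with H3.3 wild type, 1045 and 1794 with G34W, 1659 and 1607 with G34R and 1530.0 and 1592 with K27R. For Cenpa the G34W K36R libraries held 1265 and 1166, the H3.1 wild-type libraries 1587 and 2510.3 and the H3.1 G34W libraries 1627 and 854. Replicate 2 of H3.1 G34W holds the lowest Cenpa value outside the double mutant, and no group overlaps the pair. Cenpa had a log2 fold change against H3.3 wild type of -3.85 ± 0.40 (SE), adjusted p = 0.000209. Ndc80, which binds microtubules at the outer kinetochore, was at 114 and 114 in G34W K27R. Ndc80 values were 1938 and 1876 with H3.3 wild type, 1205 and 2652 with G34W, 1850.5 and 1947 with G34R and 1621 and 1689 with K27R. For Ndc80 the G34W K36R libraries held 1859 and 1934, the H3.1 wild-type libraries 2734 and 3035 and the H3.1 G34W libraries 2531 and 1270.4. Replicate 1 of H3.3 G34W and replicate 2 of H3.1 G34W are the lowest of the rest, and both stand far above the double mutant. Ndc80 had a log2 fold change against H3.3 wild type of -4.05 ± 0.43 (SE), adjusted p = 0.000237.

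Bub1b, the checkpoint kinase relative BubR1 that restrains Cdc20, was at 169.7 and 139 in G34W K27R. Bub1b values were 2426 and 2436 with H3.3 wild type, 1997 and 4230.3 with G34W, 2735 and 2884 with G34R and 2569 and 2470.3 with K27R. For Bub1b the G34W K36R libraries held 3396 and 3305, the H3.1 wild-type libraries 3960.4 and 2988 and the H3.1 G34W libraries 3778 and 2008. All other groups lie above the pair without overlap, and the log2 fold change of Bub1b against H3.3 wild type was -3.98 ± 0.42 (SE), adjusted p = 0.000238. Cenpf, a large protein of the outer kinetochore, was at 145 and 131 in G34W K27R. Cenpf values were 2799 and 2871 with H3.3 wild type, 2636 and 3449.8 with G34W, 2858 and 2981 with G34R and 2160.4 and 2322 with K27R. For Cenpf the G34W K36R libraries held 5865 and 5865, the H3.1 wild-type libraries 8059 and 4512 and the H3.1 G34W libraries 7271 and 3457. Outside the double mutant the values ran from 2160.4 in K27R replicate 1 to 8059 in H3.1 wild-type replicate 1, with a median of 3216. Its log2 fold change against H3.3 wild type was -4.35 ± 0.40 (SE), adjusted p = 0.000121, and it is the only member lowest, outside the double mutant, in a K27R library.

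Bub3, the WD-repeat partner of Bub1 and BubR1, did not follow the others. It was at 3313 and 3161 in H3.3 G34W K27R. Bub3 values were 4761 and 4704 with H3.3 wild type, 4362 and 4559.8 with G34W, 4679 and 4750.3 with G34R and 4756 and 4651 with K27R. For Bub3 the G34W K36R libraries held 3040.4 and 3084, the H3.1 wild-type libraries 4111 and 5471 and the H3.1 G34W libraries 4116 and 3024. The G34W K27R pair lies just above the G34W K36R pair and replicate 2 of H3.1 G34W, and below the remaining libraries. Bub3 had a log2 fold change against H3.3 wild type of -0.55 ± 0.20 (SE), adjusted p = 0.104, with a 95% interval of -0.999 to -0.10. Against H3.3 G34W it was -0.46 ± 0.17 (SE), adjusted p = 0.0742, so this difference was not called either. Only against H3.3 K27R did Bub3 pass, at -0.54 ± 0.17 (SE), adjusted p = 0.0366. Over the 16 libraries the log2 values of Bub3 correlated with the median of the set at r = 0.53, while the lowest r among the other 44 was 0.95. With the 2 G34W K27R libraries set aside r was still lowest for Bub3, at 0.40, with a median over the set of 0.88. The next lowest were then Cenpf at 0.55, Pbk at 0.56 and Ckap2 at 0.63. These correlations are descriptions over libraries that share groups.

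Aurkb, the kinase of the chromosomal passenger complex, was at 185 and 180.0 in G34W K27R. Aurkb values were 1874 and 1912 with H3.3 wild type, 1001 and 2642 with G34W, 1745 and 1788 with G34R and 1630.1 and 1641 with K27R. For Aurkb the G34W K36R libraries held 1861 and 1812, the H3.1 wild-type libraries 2930.1 and 3312 and the H3.1 G34W libraries 3179 and 1247. Its lowest value elsewhere is that of G34W replicate 1, and its highest that of H3.1 wild-type replicate 2. Against H3.3 wild type Aurkb had a log2 fold change of -3.37 ± 0.54 (SE), adjusted p = 0.00251. Kif11, the motor that pushes spindle poles apart, was at 256 and 267 in G34W K27R. Kif11 values were 4035 and 3961 with H3.3 wild type, 2383 and 5158 with G34W, 3841 and 3986 with G34R and 3421 and 3735 with K27R. For Kif11 the G34W K36R libraries held 4742 and 4752, the H3.1 wild-type libraries 7417 and 5274 and the H3.1 G34W libraries 6673 and 2569. In each G34W group, on H3.3 and on H3.1, 1 library is among the lowest of the rest and the other among the highest, and all 4 are far above the double mutant. The log2 fold change of Kif11 against H3.3 wild type was -3.93 ± 0.51 (SE), adjusted p = 0.000713. Tpx2, which activates Aurora A on the spindle, kept the largest share after Bub3: it was at 898 and 939 in G34W K27R. Tpx2 values were 5177 and 5085 with H3.3 wild type, 4733 and 8747 with G34W, 6232 and 6401 with G34R and 4998 and 5023 with K27R. For Tpx2 the G34W K36R libraries held 7774 and 7645, the H3.1 wild-type libraries 11002 and 10472 and the H3.1 G34W libraries 10199.9 and 5601. The other 14 libraries have a median of 6316 and all lie above the pair. Tpx2 had a log2 fold change against H3.3 wild type of -2.48 ± 0.36 (SE), adjusted p = 0.00126.

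Top2a, the topoisomerase that untangles sister chromatids, was at 1476 and 1531 in G34W K27R. Top2a values were 24144 and 24008 with H3.3 wild type, 18637 and 25573 with G34W, 17247 and 17578 with G34R and 20438 and 21571 with K27R. For Top2a the G34W K36R libraries held 18055 and 18300.1, the H3.1 wild-type libraries 28263 and 19688 and the H3.1 G34W libraries 26010.3 and 10815. H3.1 G34W replicate 2 is again the lowest of the rest. The log2 fold change of Top2a against H3.3 wild type was -4.00 ± 0.42 (SE), adjusted p = 0.000208. Mki67, the Ki-67 protein that coats mitotic chromosomes and is used as a proliferation marker, was at 540.1 and 505 in G34W K27R. Mki67 values were 12721 and 12782 with H3.3 wild type, 7037 and 17157 with G34W, 10915 and 10936 with G34R and 10362 and 11239.7 with K27R. For Mki67 the G34W K36R libraries held 18179 and 18781, the H3.1 wild-type libraries 28677 and 10296 and the H3.1 G34W libraries 26339 and 9675. The 2 H3.1 wild-type libraries lie far apart for this gene, with the higher one holding the highest value of all. Mki67 had the largest fall of the set against H3.3 wild type, -4.61 ± 0.67 (SE), adjusted p = 0.0014.

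Cdc20, the activator of the anaphase-promoting complex, was at 276 and 289 in G34W K27R. Cdc20 values were 2846 and 2893 with H3.3 wild type, 2539.7 and 4299.9 with G34W, 3432 and 3379 with G34R and 3164 and 3137 with K27R. For Cdc20 the G34W K36R libraries held 2468 and 2456, the H3.1 wild-type libraries 3408 and 3836 and the H3.1 G34W libraries 3433 and 1621. Apart from H3.1 G34W replicate 2 the other libraries hold 2456 or more. The log2 fold change of Cdc20 against H3.3 wild type was -3.34 ± 0.38 (SE), adjusted p = 0.000338. Ube2c, an E2 enzyme of the same ligase, was at 167 and 176 in G34W K27R. Ube2c values were 2183 and 2217 with H3.3 wild type, 1761 and 3248 with G34W, 2509.6 and 2607 with G34R and 2178 and 2247 with K27R. For Ube2c the G34W K36R libraries held 2476 and 2473, the H3.1 wild-type libraries 4019.9 and 5568 and the H3.1 G34W libraries 3943 and 1667. Its highest value lies in H3.1 wild-type replicate 2 and its lowest outside the double mutant in H3.1 G34W replicate 2. The log2 fold change of Ube2c against H3.3 wild type was -3.67 ± 0.45 (SE), adjusted p = 0.000499.

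Anln, the actin-binding anillin of the cleavage furrow, was at 599 and 578 in G34W K27R. Anln values were 10273 and 10253 with H3.3 wild type, 6472 and 17528 with G34W, 10068 and 10449 with G34R and 8309 and 8701 with K27R. For Anln the G34W K36R libraries held 10118 and 10162, the H3.1 wild-type libraries 26330.4 and 19964 and the H3.1 G34W libraries 25327 and 7887. Values of the H3.1 wild-type pair and of H3.1 G34W replicate 1 are the highest, and no group overlaps G34W K27R. Anln had a log2 fold change against H3.3 wild type of -4.12 ± 0.62 (SE), adjusted p = 0.0017. Kif23, a motor of the central spindle, was at 105 and 121 in G34W K27R. Kif23 values were 1812 and 1825 with H3.3 wild type, 1944 and 3169 with G34W, 2316 and 2399.6 with G34R and 1667 and 1605 with K27R. For Kif23 the G34W K36R libraries held 2101 and 2093, the H3.1 wild-type libraries 3809 and 3477 and the H3.1 G34W libraries 3633 and 1520.0. The median outside the double mutant was 2097, and no group overlaps it. Against H3.3 G34W the log2 fold change of Kif23 was -4.45 ± 0.34 (SE), adjusted p = 1.46e-05. Cenpe, a kinetochore motor that moves chromosomes to the spindle equator, was at 145 and 189 in G34W K27R. Cenpe values were 2123 and 2248 with H3.3 wild type, 1931 and 3630.4 with G34W, 2523 and 2537 with G34R and 2106 and 2370.0 with K27R. For Cenpe the G34W K36R libraries held 4502 and 4699, the H3.1 wild-type libraries 6658 and 4873 and the H3.1 G34W libraries 5865 and 2363. The median of these 14 values was 2530, with all of them above the double mutant.

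The design also lets the effect of G34W be compared between tails with K27 intact and tails with K27R. The difference of those 2 effects on the log2 scale was called lower for 43 of the 45 genes, beside 5.22% of all genes tested, with a median of -3.73. It was largest for Cdc25c, at -4.61 ± 0.62 (SE), adjusted p = 0.00205, followed by Kif23 at -4.30 ± 0.54 (SE), adjusted p = 0.00154 and Bub1b at -4.28 ± 0.55 (SE), adjusted p = 0.00174. The 2 genes not called were Foxm1, at -2.60 ± 0.75 (SE), adjusted p = 0.0621, and Bub3, at -0.45 ± 0.26 (SE), adjusted p = 0.353. In 5 groups, among them G34W K27R, K27R and H3.3 wild type, the 2 libraries differ far less than in the other 3 groups. For the counts that follow, the share of all genes called in the same fits is not given here. With each of these pairs counted as 1 sample the number called was 16 against H3.3 wild type, 38 against H3.3 G34W, 0 against K27R and 0 in the test of the 2 effects, with medians of -3.74, -3.79, -3.74 and -3.73.

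None of the 3 single mutations on H3.3 moved a gene of the set past the test. Against H3.3 wild type 0 of the 45 genes were called in G34W, beside 1.18% of all genes, and the median log2 fold change was 0.04. In G34R 0 genes were called beside 2.72% of all genes, with a median of 0.07. In K27R 0 were called beside 2.75% of all genes, with a median of -0.11. In each of the 3 limma comparisons 0 of the 45 genes had an unadjusted p under 0.05. The intervals are wide: the 95% limits of the 45 differences reached from -1.71 to 1.45 for G34W, from -1.72 to 1.40 for G34R and from -1.74 to 1.37 for K27R. Fitted on the compared groups alone, 26 genes were called in G34R, 20 of them higher, and 23 in K27R, 19 of them lower. Both counts rest on mutant pairs whose libraries are nearly alike, since H3.3 wild type entered as 1 sample. Shares of all genes called in those fits are not given here, so the counts are not read as a trait of the set.

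The 2 G34W libraries do not agree on where the set stands. In replicate 1, 42 of the 45 genes lay below both H3.3 wild-type libraries, with a median log2 difference of -0.47 and Racgap1, a regulator of the central spindle, lowest at -1.14. In replicate 2, 43 of them lay above both, with a median of 0.48 and Plk1 highest at 0.90. Between the replicates 44 of the 45 genes were higher in replicate 2, by 0.96 at the median. Over all genes tested the median of that difference was 0.015, with a standard deviation of 0.95. Counts below or above both wild-type libraries were not made over all genes. Over the 45 genes the K27R and G34R pairs differed by 0.04 and 0.05 at the median. Even the lower G34W library, with a summed value of 124754, stood far above the G34W K27R pair.

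In H3.3 G34W K36R the summed level of the set was close to that in H3.3 wild type, with single genes on both sides of it. Summed values were 166874 and 168261 in H3.3 G34W K36R, 171637 and 171131 in H3.3 wild type, and 124754 and 231126 in G34W. Against H3.3 wild type 0 of the 45 genes were called by limma, beside 17.1% of all genes, and 4 had an unadjusted p under 0.05. The number called depends on the fit: it was 32, with 16 higher and 16 lower, on the compared groups alone, and 4 when the H3.3 wild-type pair entered as 2 samples or without either H3.1 G34W library. It was 2 with the replicate block added to that pair as 2 samples, and 1 without either library of G34W or H3.1 wild type. The 4 genes with an unadjusted p under 0.05, named after their values were seen, were Cenpe, a kinetochore motor, at a log2 difference of 1.07, Cenpf at 1.05, Bub3 at -0.63 and Pbk, a mitotic kinase, at -1.05. The median was 0.00 and the range ran from -1.08 (Birc5) to 1.07, with 95% limits reaching from -2.38 to 2.14. For the counts from the other fits, the share of all genes called is not given here. Against G34W 1 gene was called: Bub3 fell, at -0.54 ± 0.17 (SE), adjusted p = 0.0320, beside 16.2% of all genes called lower. Against the same G34W libraries Bub3 had a log2 difference of -0.46 in G34W K27R, which was not called. The Bub3 call was lost when 1 library was left out: G34W replicate 1, or either library of G34R, K27R, G34W K27R or G34W K36R. It was joined by others, to 6 in all, without either H3.1 G34W library, and to 2 without either H3.1 wild-type library.

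Differences between groups went with transcript length in several comparisons. Across the 45 genes the log2 difference of G34W K36R from H3.3 wild type correlated with the log2 length of the longest coding transcript at r = 0.58, and across the 11412 genes with a length at r = 0.21. For G34W K27R minus H3.3 wild type the same correlations were -0.14 and 0.02. They were 0.52 and 0.24 for H3.1 G34W minus H3.1 wild type, and 0.31 and 0.05 for H3.1 minus H3.3 wild type. Genes are not independent replicates, so these are descriptions, and the part of length in these differences was not tested.

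With H3.1 wild type the summed values were 277177 and 241018, against 171637 and 171131 with H3.3 wild type. Of the 45 genes 43 had a positive log2 difference, with a median of 0.65. That sign count and median are not set beside those of all genes here. By limma 2 of the 45 were called higher, beside 16.3% of all genes called higher. Cenpe rose by 1.38 ± 0.48 (SE), adjusted p = 0.0486, from 2123 and 2248 to 6658 and 4873. Tpx2 rose by 1.06 ± 0.36 (SE), adjusted p = 0.0429, from 5177 and 5085 to 11002 and 10472. Both calls are fragile: the count was 0 without replicate 1 of H3.1 wild type, 1 without its replicate 2 or without replicate 1 of H3.3 wild type, and 0 without either library of G34R, K27R, G34W K27R or G34W K36R. It was 12 without either H3.1 G34W library, 9 with the wild-type libraries counted separately and 8 with the replicate block added to that. It was 0 on the compared groups alone, without the filter on low values, and with TMM rescaling. That rescaling moved the median of the 45 genes to 0.62. Shares of all genes called in these other fits, or with a library left out, are not given here. The changes in the count are therefore not read as a trait of the set.

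The 2 H3.1 wild-type libraries differ from each other gene by gene. The median difference between them was only -0.03, but single genes ran from -1.48 (Mki67) to 0.70. Of the 22 members with a transcript longer than the median of 3227 bases, 18 were higher in replicate 1, and of the 23 others 18 were higher in replicate 2. Over the 45 genes r with log2 length was -0.83, and over all 11412 genes -0.63, while in the other 7 groups r over the members was at most 0.31 in size. The part of this length pattern in the H3.1 comparisons was not tested.

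**Figure D4:**
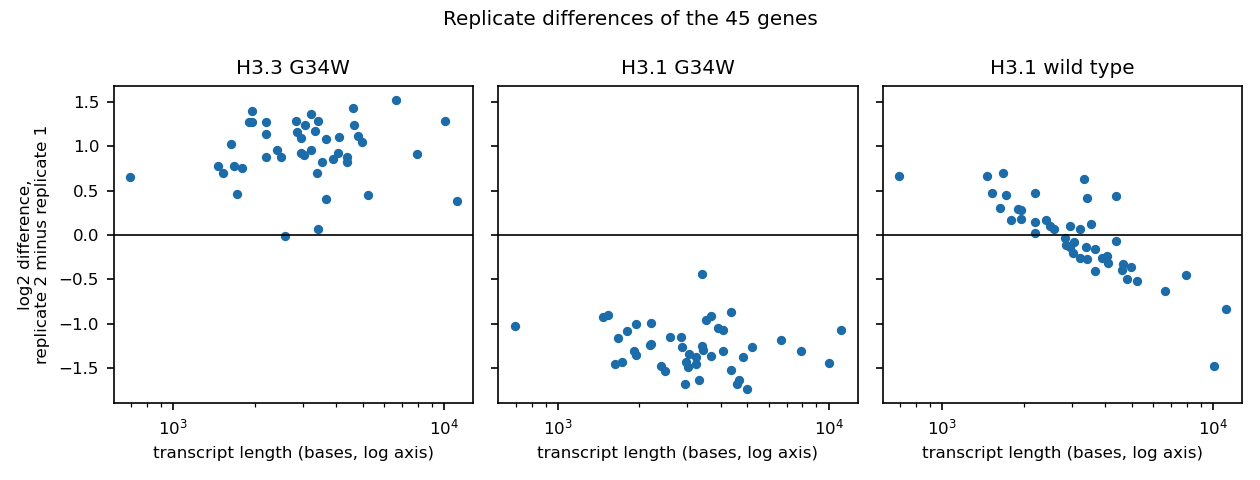
Log2 difference between replicate 2 and replicate 1 for each of the 45 genes against transcript length (log axis) in the 3 groups whose libraries differ most. The points of H3.3 G34W lie almost all above 0, those of H3.1 G34W all below it, and those of H3.1 wild type slope downward with length.

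Placing G34W on H3.1 gave no call. Against H3.1 wild type 0 of the 45 genes were called in H3.1 G34W by limma, beside 0% of all genes, although all 45 differences were negative, with a median of -0.68, and 13 had an unadjusted p under 0.05. That sign count, median and number under 0.05 are not set beside those of all genes here. The 2 libraries stood far apart. From replicate 1 to replicate 2 the median log2 difference was -1.30 over the 45 genes. Over all genes tested it was 0.003, with a standard deviation of 0.79. In replicate 1, with a summed value of 261124, the median log2 difference from H3.1 wild type was -0.07 and 16 of the 45 genes lay below both wild-type libraries. In replicate 2, with a summed value of 105010, all 45 lay below both, with a median of -1.32. Birc5, the survivin of the passenger complex, was lowest there at -1.90. Counts below both H3.1 wild-type libraries were not made over all genes. Without replicate 1 the number called was 36, and without replicate 1 of H3.1 wild type it was 1. The difference between the G34W effect on H3.3 and on H3.1 was called for 0 of the 45 genes, beside 0.197% of all genes, with a median of 0.73, and for 8 without replicate 1 of H3.1 G34W. For these counts with a library left out, the share of all genes called is not given here. Replicate 2 of H3.1 G34W was the lowest library outside G34W K27R for 28 of the 45 genes and replicate 1 of H3.3 G34W for 16.

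Asked whether the 8 groups differ at all, limma's F test called 45 of the 45 genes, beside 66.6% of all genes tested, with the highest adjusted p for Bub3 at 0.0187. With each close pair counted as 1 sample it called fewer of the 45, and the share of all genes called in that fit is not given here.

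Other genes of the same stages were looked up in 6 further lists, chosen with results of these data known, which hold 112 tested genes outside the 45. Against H3.3 wild type 69 of the 112 fell in G34W K27R and 1 rose, with a median log2 fold change of -2.04. Against H3.3 G34W 74 fell and 1 rose, with a median of -1.86; over all genes tested 7.91% and 12.4% were called lower in these comparisons and 6.42% and 9.24% higher. Of the 6 lists the further spindle and cytokinesis genes had the median nearest to that of the members: 21 of 22 genes fell against G34W, with a median of -3.64, among them Aspm, a spindle pole protein, at -4.50. Of 28 further kinetochore and checkpoint genes 24 fell, led by Ska1 at -4.10, Casc5, the Knl1 scaffold, at -4.04 and the cohesin protector Sgol1 at -3.93, while Zwint, which binds that scaffold, rose by 1.14. Of 13 further genes of mitotic entry 9 fell, with the phosphatase Cdkn3 at -4.63 and the kinases Mastl at -3.31 and Pkmyt1 at -2.81.

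The other 3 lists had smaller medians. Of 17 condensin and cohesin genes 10 fell against G34W and the median was -0.86, with Ncapg, a condensin I subunit, at -3.55 and the cohesin regulator Cdca5, sororin, at -3.03. Of 16 genes of the anaphase-promoting complex and its partners 4 fell and the median was -0.35, with Fbxo5, the inhibitor Emi1, at -2.36 and Ube2s, another E2, at -1.03. Of 16 MuvB, B-Myb, E2F and pocket protein genes 6 fell, with the repressor E2Fs E2f8 and E2f7 at -2.91 and -2.57 and the activator E2f2 at -2.78, beside a median of -0.48.

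**Figure D5:**
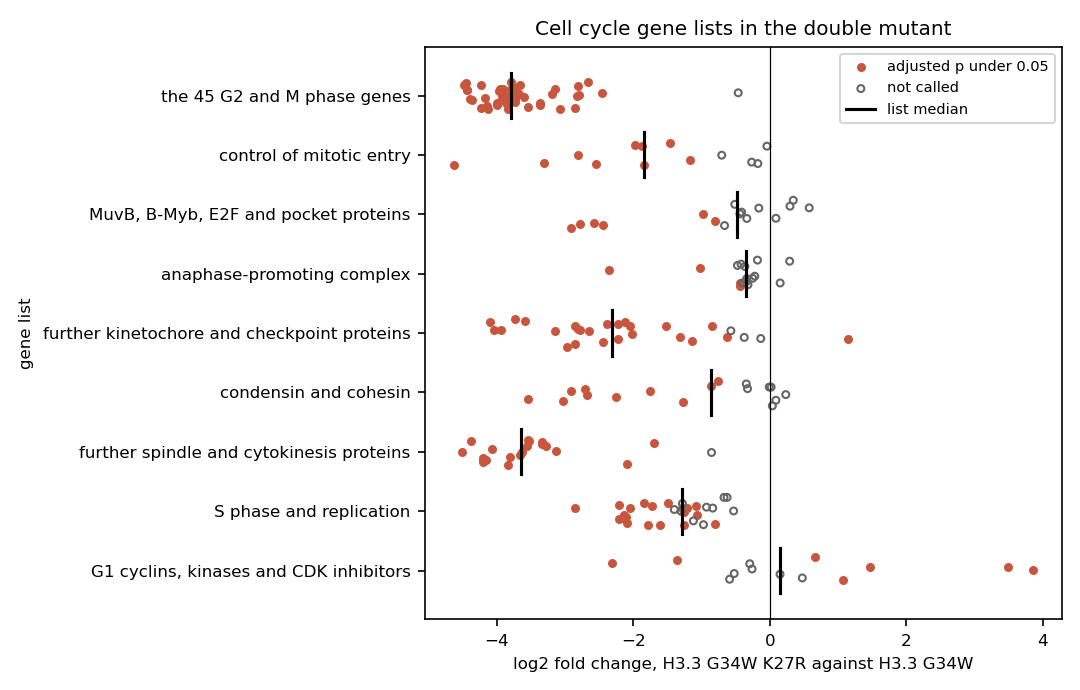
Log2 fold change of H3.3 G34W K27R against H3.3 G34W for the 45 genes, 6 further lists of G2 and M phase genes, S phase genes, and G1 cyclins, kinases and CDK inhibitors (1 point a gene, red where called, bar at the list median). The 45 genes and the further spindle list have medians of -3.80 and -3.64, the S phase list has one of -1.29, and the last list lies on both sides of 0.

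Of the S phase genes most fell too, with a smaller median. Against H3.3 G34W 20 of 30 fell and none rose, beside 12.4% of all genes called lower, with a median of -1.29. Against H3.3 wild type 21 of 30 fell, beside 7.91% of all genes, with a median of -1.80. Rrm2, the small subunit of ribonucleotide reductase, was lowest in both, at -2.85 and -3.38. Among 13 G1 cyclins, kinases and CDK inhibitors 5 rose and 2 fell against G34W, beside 9.24% of all genes called higher and 12.4% called lower. Cdkn2a, the p16 and p19Arf locus, was at 427 and 456 in G34W K27R, 37.5 and 39.4 in G34W and from 0 to 142 in all 14 other libraries, a log2 fold change against G34W of 3.49. Cdkn2b, p15, was at 759 and 797 in G34W K27R, 61.9 and 44.8 in G34W and elsewhere from 0 in both H3.3 wild-type libraries to 169 in G34R replicate 2, a log2 fold change against G34W of 3.86. Cdkn2a and Cdkn2b were also called higher in G34W, G34R, K27R and G34W K36R than in H3.3 wild type. Limma adjusted p ran from 8.87e-05 to 0.00201. For Cdkn2b these calls start from 0 in H3.3 wild type, and for Cdkn2a from under 3 reads. For both genes the levels stayed below those of G34W K27R. In each of these comparisons 0 of the 45 genes were called. The CDK inhibitors Cdkn2d, p19, and Cdkn2c, p18, fell, at -2.32 and -1.35. Whether these genes act on the 45 was not tested.

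Most mesenchymal markers looked up for the cell label were expressed, with Nt5e as the exception. Of 10 mesenchymal markers 9 or 10 stood above 3 reads in each library, and their sum ran from 466794 to 886831. Vim, Col1a1 and Col1a2 were the largest parts of that sum. Nt5e was the marker not above 3 reads in some libraries. Its values ran from 0.968 in H3.3 wild-type replicate 1 to 14.96 in H3.3 K27R replicate 2. Sums of 4 epithelial markers ran from 21.1 to 305, of 3 blood markers from 16.7 to 56.9, of 3 endothelial markers from 0 to 75.5 and of 2 skeletal muscle markers from 0 to 4.25. In G34W K27R these 5 sums were 474384 and 480415, 21.1 and 25.3, 51.0 and 54.5, 12.2 and 4.86, and 0 in both libraries. Epcam, Krt18, Ptprc, Myod1 and Myog were at 0 there. Cdh1 was the largest part of the epithelial sum in every library. It was at 160.7 and 187.9 in H3.3 wild type and at 299.9 and 294.1 in H3.3 K27R. Estimated depth ran from 26.02 to 49.1 M reads per library.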

How the data were processed

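Polyadenylated RNA was sequenced from 16 C3H10T1/2 libraries. The deposited signal per gene is a median-normalised expected count, per the file headers and the submitters' processing notes, which name RSEM 1.2.4 and mm9; the aligner and annotation are not given in the sources used here. Among values above 0, 41.8% to 47.6% were whole reads (tolerance 0.01 reads), so no count test was run. A read was taken as the most common value above 0 of each library. A second table repeats 180 genes, none of them among the 45, and was only checked to hold the same values.

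The members, lists and named genes were chosen with earlier results of these data known. Values are given in every library for 15 members chosen from textbook roles, and for up to 3 called members with the largest change each way in a comparison; in the further lists up to 3 called genes each way are named. Genes with a mean of at least 10 (12670, all 45 members included) were fitted as log2(value + 1), so fold changes are on that scale and understate those of low genes. limma 3.58.1 in R 4.3.3 (trend, robust, statmod 1.5.0) took all 8 groups in 1 fit, two-sided, Benjamini-Hochberg over all genes, threshold 0.05. Both libraries of H3.3 wild type entered as their mean, 1 sample, since over 2395 genes with whole reads they differed by less than the sampling noise (chi-square p = 0.882, though p = 6.1e-64 over 11933 genes), leaving 15 samples and 7 residual degrees of freedom. A fold change of a group has 2 libraries against 2, or against that 1 sample. Replicate numbers did not pair libraries: replicate differences correlated at -0.265 to 0.0598 over 28 pairs of groups. The script was tested on simulated data in which all libraries vary independently, so that test does not cover the close pairs. Transcript lengths are those of GENCODE M21, for 90.1% of tested genes. Where a symbol had more than 1 RefSeq promoter the first listed was used. Alternatives were a pseudocount of 5, no filter, TMM rescaling, the compared groups alone, wild-type libraries counted separately, a replicate block, close pairs as 1 sample, and leaving out each library. Floors of 3 reads cover counting error only.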

Additional observations from a re-analysis of the deposited data

Results flagged for a closer look

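The effect of G34W on the set differed between H3.3 tails with K27 intact and tails with K27R. A test of the difference itself called 43 of the 45 genes, all lower, with the largest differences on the log2 scale for Cdc25c, at -4.61, Kif23, at -4.30, and Bub1b, at -4.28. With each of 5 close pairs of libraries counted as 1 sample the same test called 0 of the 45, at a median of -3.73.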

How the results depend on the processing

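For single genes no alternative reversed a direction: of 4117 values recomputed for called genes, 3877 stayed past the threshold and 240 did not. The close pairs weigh most. With each of 5 close pairs counted as 1 sample the genes called fell to 21 for any difference among the groups, 16 for G34W K27R against H3.3 wild type, and 0 for G34W K27R against K27R, the test of G34W with K27R, G34W K36R against G34W and H3.1 against H3.3 wild type; the spread then rests on fewer samples. Against G34W 38 of the 45 were still called in G34W K27R. With the compared groups alone 26 genes were called in G34R, 23 in K27R, 32 in G34W K36R, each against H3.3 wild type, and 0 in H3.1 against H3.3 wild type. With the wild-type libraries counted separately the counts were 4 for G34W K36R against H3.3 wild type, 2 for G34W K36R against G34W, and 9 for H3.1 against H3.3 wild type; with the replicate block added they were 2, 2 and 8, and the block changed no other count by over 1.5 times. Without the filter, or with TMM rescaling, H3.1 against H3.3 wild type gave 0. Shares of all genes called under these alternatives are not given here, and the causes were not tested.

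Leaving out each library in turn gave 42 to 45 genes for G34W K27R against H3.3 wild type, 44 to 45 against G34W and against K27R, 32 to 44 for the test of G34W with K27R, and 44 to 45 for any difference. It gave 0 to 6 for G34W K36R against G34W, 0 to 4 for G34W K36R against H3.3 wild type, 0 to 36 for G34W against wild type on H3.1, 0 to 12 for H3.1 against H3.3 wild type, and 0 to 8 for the test of G34W with histone type. For G34W, G34R and K27R against H3.3 wild type it gave 0 throughout. A group left with 1 library is assumed to vary like the others. Shares of all genes called with a library left out are not given here.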
